A study of Rattus norvegicus with 36 samples.

Results

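Mammary cancers that arose in rats after N-methyl-N-nitrosourea (MNU) and were recorded as carrying no H-ras mutation were set against normal mammary tissue across all measured genes. By their sample titles, 4 of the series' 33 cancers and its 3 samples of normal tissue qualified, which makes 7 of 36 arrays. The cancers came from female Sprague-Dawley rats bought at 5 weeks of age and given MNU at 40 mg/kg by intraperitoneal injection; the normal tissue came from untreated rats of the same strain and sex. Treatment was at 7 weeks, and all rats of the study ate a diet with 23.5% corn oil after 9 weeks, so both groups share the high-fat diet. The sources used here do not give the age at which each cancer or gland was taken or the reproductive state of the rats. They also do not say whether each cancer came from a different rat. The p-values below therefore measure a spread between samples, which may not be one between rats. That spread was pooled within the 10 groups of all 36 arrays, so it does not describe these 7 arrays alone. The rest of the series held MNU cancers with an H-ras mutation and cancers that were spontaneous or followed gamma rays, the food-borne amine PhIP, or gamma rays combined with either chemical. The gamma ray dose was 1 Gy, with 3 days from radiation to the chemical where both were given. Cancers after gamma rays plus MNU had the same MNU dose of 40 mg/kg.

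MNU is a direct-acting methylating agent. One of the bases it makes, O6-methylguanine, pairs with thymine when DNA is copied, and an activating H-ras mutation is a well-known lesion of MNU mammary tumours in rats. The cancers studied here are those without that lesion. The normal gland is a tree of luminal and basal epithelium embedded in a fat pad, and its ductal growth depends on ovarian hormones, prolactin and ligands of the epidermal growth factor (EGF) receptor.

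RNA had been labelled as cRNA and hybridised to single-colour oligonucleotide arrays, and each value is an intensity on a linear scale. Each array had been scaled to a trimmed mean intensity of about 500. Tests ran on log2(intensity + 42.8) for 11773 genes in a limma model of all 36 arrays, and a gene was called at an adjusted p below 0.05 (Benjamini-Hochberg). Fold changes are MNU cancers minus normal tissue on that log2 scale, which understates the change of dim genes, and ± marks their SE unless SD is written. The number of arrays and the signal over background limit the precision.

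MNU cancer replicate 4 stood apart from the other arrays. Its hexokinase control probe sets gave a 3' over 5' ratio of 12.25, against 1.662 to 4.658 on the other 35 arrays. Its GAPDH ratio was 1.562, against 0.9606 to 1.226 on the others. High 3' over 5' ratios are a known sign of degraded RNA. The actin ratio of 1.662 lay within the range of the others, 1.117 to 1.707. Its median intensity, 161.4, was below the 182 to 222.7 of the other arrays. Across genes, replicate 4 correlated with replicates 1 to 3 at 0.884 to 0.891, whereas replicates 1 to 3 correlated with each other at 0.933 to 0.972 and the normal samples at 0.95 to 0.955. Results are therefore given with and without replicate 4.

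**Figure D1:**
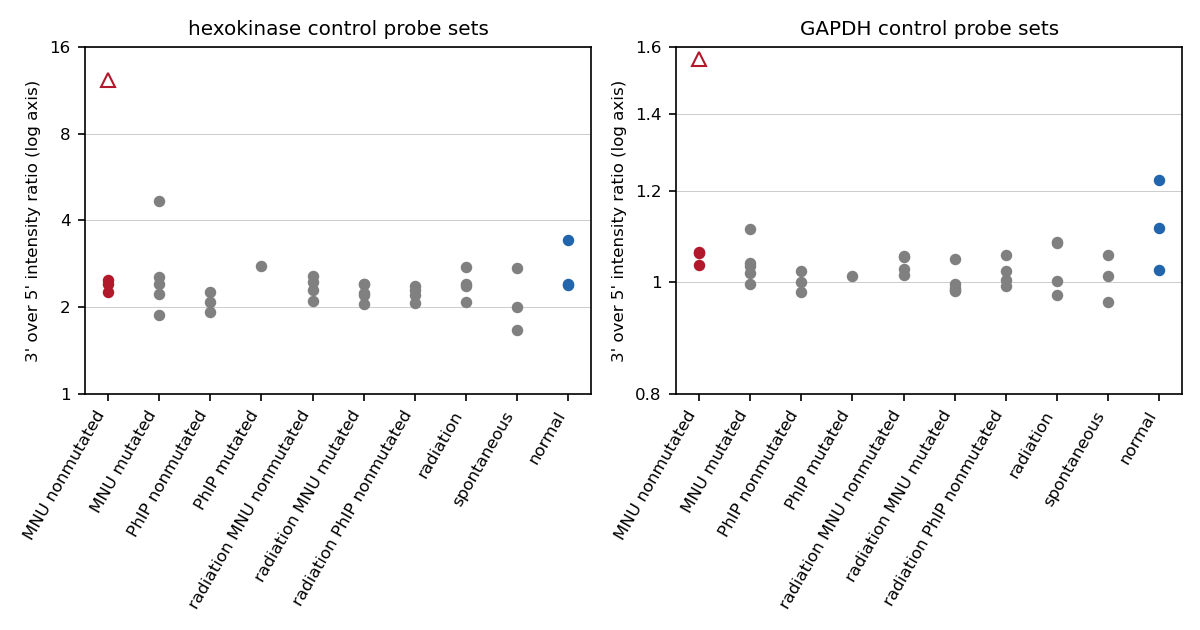
The 3' over 5' intensity ratio of the hexokinase (left) and GAPDH (right) control probe sets on a log axis, 1 point per array, for the MNU cancers without an H-ras mutation (red, replicate 4 as an open triangle), the other cancer groups (grey) and normal tissue (blue). Replicate 4 has the highest ratio of all 36 arrays in both panels, 12.25 and 1.562.

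Of the 11773 genes, 1369 (11.6%) were higher and 1263 (10.7%) were lower in the MNU cancers than in normal tissue. The balance of rises and falls turned under several settings. Median centring of the arrays gave 1035 higher and 1243 lower, no filter on dim probe sets 1336 and 1411, and quantile normalization 1259 and 1278. With the added constant at the 40th percentile the counts were 1330 and 1333, and without normal replicate 2 they were 873 and 948. A fit of only the 2 groups called 521 higher and 557 lower. The other settings kept more rises than falls. Changes of at least 2-fold were called for 429 genes (3.64%) on the higher side and 495 (4.2%) on the lower side. Without replicate 4, 1160 genes (9.85%) were higher and 1090 (9.26%) were lower. The 2 sets of calls shared 1931 genes, all in the same direction, which is 73.4% of the calls made with all 4 cancers and 85.8% of those made without replicate 4. Another 701 genes were called only with replicate 4 and 319 only without it. The median log2 fold change over all genes was 0.02, so changes below are close to being relative to the average gene.

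The 12 largest rises held growth regulators, developmental transcription factors and secreted proteins. Areg encodes amphiregulin, a ligand of the EGF receptor that acts downstream of oestrogen in ductal growth. Its intensity was 8816, 8175, 5672 and 8149 in MNU cancers 1 to 4, against 253, 210 and 382 in the normal samples. All 4 cancers were therefore far above all 3 normal samples, with a ratio of mean intensities of 27.4 and a log2 fold change of 4.59 ± 0.37 (adjusted p = 3.45e-10). Wnt4, a secreted Wnt protein made in response to progesterone, had 1415, 3249, 934 and 1319 in the cancers and 139, 96.1 and 131 in normal tissue. Its rise was 3.28 ± 0.47 (adjusted p = 1.04e-05), with no overlap between the groups. Mmp13, a collagenase, had 1705, 1039, 1745 and 714 in the cancers and 36.9, 22.6 and 240 in normal tissue. The brightest normal sample stayed below the dimmest cancer, and the rise was 3.47 ± 0.76 (adjusted p = 0.00148).

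The promoters of Areg and Mmp13 are printed because these are secreted products among the largest rises and hold matches to the searched core-promoter motif; the sequences are the 250 bases before each RefSeq gene start on the gene's strand in GRCr8, chr14:17265642-17265891 (minus strand) and chr8:12782579-12782828 (plus strand). Capitals mark matches to TATAAA and, in Mmp13, also to the AP-1 motif TGANTCA, searched on both strands.
Areg: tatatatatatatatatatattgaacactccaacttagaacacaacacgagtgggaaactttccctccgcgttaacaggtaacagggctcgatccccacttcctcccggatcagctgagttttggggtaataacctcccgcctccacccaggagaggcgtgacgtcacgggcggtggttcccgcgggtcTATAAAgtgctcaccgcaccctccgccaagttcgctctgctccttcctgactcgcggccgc
Mmp13: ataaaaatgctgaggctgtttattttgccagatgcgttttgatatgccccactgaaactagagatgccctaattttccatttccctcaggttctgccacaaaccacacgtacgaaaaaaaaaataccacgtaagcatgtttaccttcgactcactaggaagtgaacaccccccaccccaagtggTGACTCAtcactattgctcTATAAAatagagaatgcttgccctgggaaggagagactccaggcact
In Areg the TATA match starts 61 bases before the gene start. In Mmp13 it starts 47 bases before the start, and the AP-1 match, which does not overlap it, starts 66 bases before. Of the 12 genes, 9 had a promoter in the table. In the 300 bases scanned, 4 of the 9 held TATAAA and 1 held TGANTCA, compared with 14.3% and 7.33% of all 27457 promoters. Among the 12 largest falls, 2 of 9 promoters held TATAAA and 2 of 9 held TGANTCA. A match is a description of these letters and no evidence of binding.

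Cdkn2a, an inhibitor of the cyclin D kinases whose locus also encodes Arf, had 469, 530, 733 and 1303 in the cancers and 19.1, 26.3 and 6.80 in normal tissue. It rose by 3.64 ± 0.65 (adjusted p = 0.000178), and the normal values are all dim, below the constant added before the log. Id4, an inhibitor of DNA-binding helix-loop-helix proteins, had 2873, 3432, 3075 and 2319 in the cancers and 359, 159 and 190 in normal tissue. Its 4 cancers were close together, and the rise was 3.46 ± 0.36 (adjusted p = 5.21e-08). Tfap2b, an AP-2 family transcription factor, had 2472, 5978, 1917 and 959 in the cancers and 108, 191 and 271 in normal tissue. It rose by 3.39 ± 0.58 (adjusted p = 0.000111) and its brightest cancer was replicate 2 and its dimmest replicate 4.

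The other 6 of the 12 were Mup5, Gp2, Nxpe2, Sema3b, Igfals and Prag1. Mup5, of the major urinary protein family, had the largest log2 fold change, 5.20 ± 0.98 (adjusted p = 0.000337), with 323, 5592, 4462 and 1074 in the cancers and 0.643, 2.50 and 16.9 in normal tissue. Its probe set can bind other members of that family, its normal values are all very dim, and its cancers differ more than 10-fold among themselves. Gp2, known as a membrane glycoprotein of pancreatic secretory granules, had 4218, 1678, 5161 and 6370 in the cancers and 158, 129 and 158 in normal tissue (4.38 ± 0.65, adjusted p = 1.76e-05). Sema3b, a secreted semaphorin, had 2893, 3230, 3540 and 964 in the cancers and 146, 79.8 and 164 in normal tissue, so that replicate 4 was the dimmest cancer but still above every normal sample (3.85 ± 0.53, adjusted p = 6.56e-06). Igfals, the acid-labile subunit that holds insulin-like growth factors in serum complexes, had 311, 488, 511 and 1969 in the cancers and 10.2, 6.53 and 11.6 in normal tissue (3.70 ± 1.01, adjusted p = 0.00908). Here replicate 4 was the brightest, and the call remained without it (3.17, adjusted p = 0.0363). Nxpe2 had 1003, 1318, 1629 and 820 in the cancers and 59.97, 23.99 and 11.03 in normal tissue (4.06 ± 0.41, adjusted p = 2.26e-08). Prag1, a pseudokinase scaffold, had 1435, 3296, 1220 and 4882 in the cancers and 127.2, 289.5 and 225 in normal tissue (3.25 ± 0.47, adjusted p = 1.15e-05). The groups did not overlap for either gene. All 12 rises were still called without replicate 4.

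**Figure D2:**
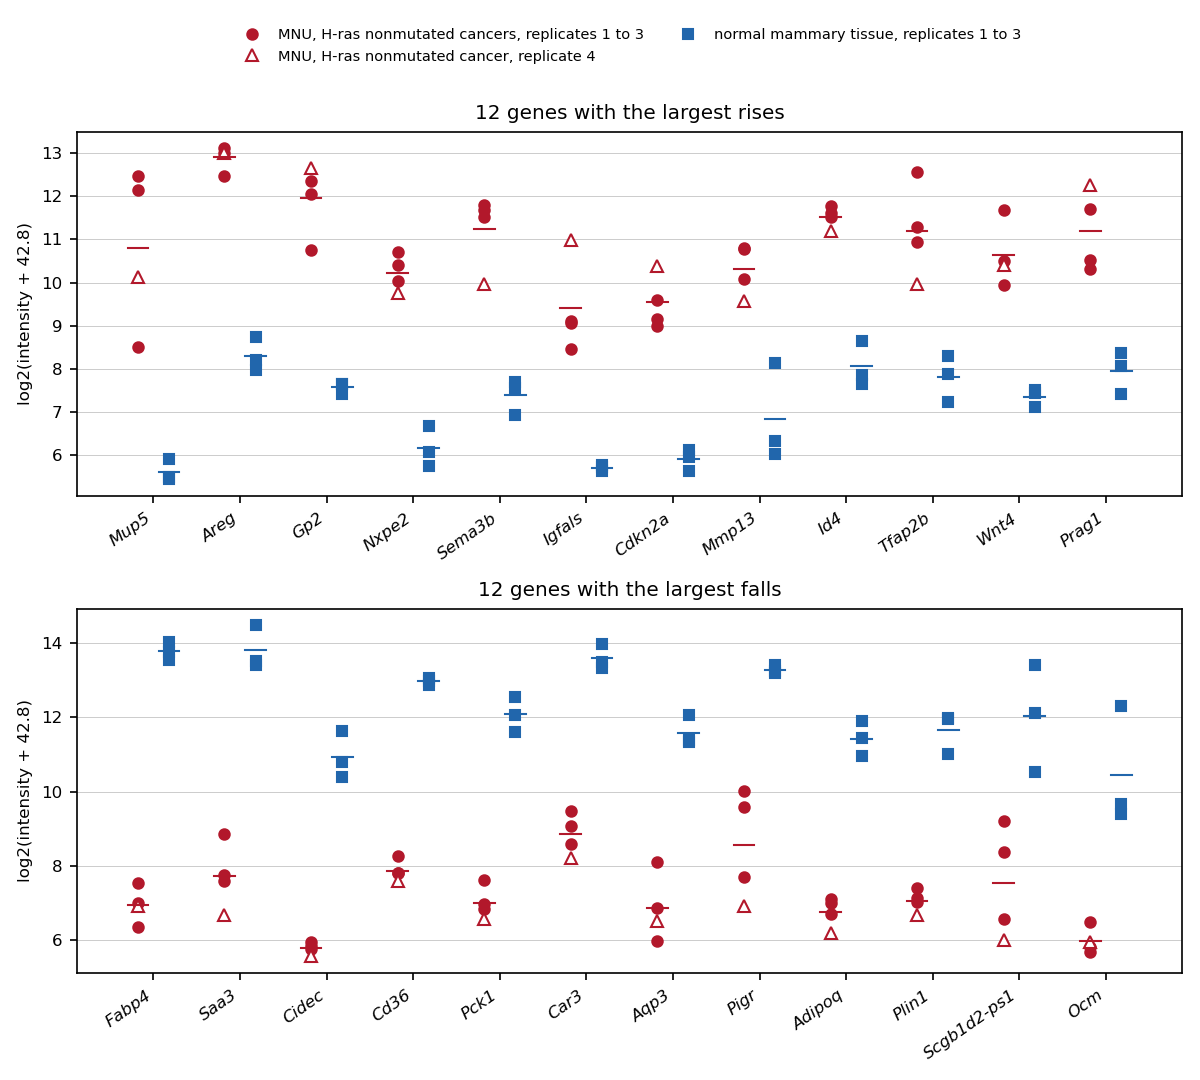
log2(intensity + 42.8) of the 12 genes with the largest rises (top) and the 12 with the largest falls (bottom), with MNU cancers left of normal tissue for each gene, replicate 4 as an open triangle, normal tissue as squares and short lines at group means. In all 24 genes the 4 cancers lie on 1 side of the 3 normal samples, but the genes were chosen as the largest called changes on these arrays. Over all genes, the 4 cancers lay above all 3 normal samples for 14% and below them for 12.8%.

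Of the 12 largest falls, Fabp4, Cidec, Cd36, Pck1, Car3, Adipoq and Plin1 are described first. Fabp4, the fatty acid carrier of adipocytes, had 86.4, 143, 39.2 and 78.1 in the cancers and 13890, 11970 and 16700 in normal tissue. It is among the brightest genes of the normal samples and dim in all 4 cancers, with a log2 fold change of -6.83 ± 0.56 (adjusted p = 4.05e-10). Pck1, which makes the glycerol backbone of stored fat, had 82.5, 156, 71.2 and 52.0 in the cancers and 5934, 3092 and 4278 in normal tissue. Its fall of -5.08 ± 0.19 had the smallest adjusted p of the 12 (5.79e-18). Cidec, a lipid droplet protein, had 11.4, 14.9, 18.8 and 4.47 in the cancers and 3122, 1301 and 1741 in normal tissue (-5.16 ± 0.23, adjusted p = 2.81e-16). Cd36 (fatty acid uptake), Car3 (a carbonic anhydrase abundant in fat and muscle), Adipoq (the hormone adiponectin) and Plin1 (the coat of lipid droplets) had log2 fold changes of -5.10, -4.75, -4.68 and -4.59, all called (adjusted p = 1.94e-06, 1.35e-07, 1.52e-14 and 3.17e-14), and no cancer reached any normal sample.

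Of the adipocyte list, 14 of 15 measured genes fell and none rose, beside 10.7% lower over all genes, and the list's median log2 fold change was -3.33 beside 0.02 for all genes. The members' summed intensity was 4321 to 6549 in the cancers and 59243 to 80071 in normal tissue. Lep, the fat-derived hormone leptin, had 10.8, 19.8, 12.8 and 7.12 in the cancers and 835, 328 and 348 in normal tissue (-3.19 ± 0.19, adjusted p = 2.12e-13). Pparg, the transcription factor of adipocyte identity, had 74.9, 123, 52.5 and 64.0 in the cancers and 471, 311 and 395 in normal tissue (-1.86 ± 0.29, adjusted p = 4.16e-05). Both groups were apart for both genes, and the same 14 members were called without replicate 4. The exception was Lipe, hormone-sensitive lipase, which had 495, 932, 642 and 698 in the cancers and 713, 520 and 895 in normal tissue (-0.04 ± 0.21, adjusted p = 0.925). In whole tissue, fewer cells of a type and less RNA per cell cannot be told apart. Among markers of brown fat, Cidea fell by 3.86 ± 0.50 (adjusted p = 2.11e-06), while Cpt1b, Cox7a1 and Ppargc1a were not called.

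The promoters of Plin1 and Lep are shown as those of adipocyte genes that fell and hold the C/EBP motif, the site of a transcription factor family of fat cells; they are the 250 bases before the RefSeq start in GRCr8, chr1:143086149-143086398 (minus strand) and chr4:58626288-58626537 (plus strand), with matches to TTGCNNAA in capitals.
Plin1: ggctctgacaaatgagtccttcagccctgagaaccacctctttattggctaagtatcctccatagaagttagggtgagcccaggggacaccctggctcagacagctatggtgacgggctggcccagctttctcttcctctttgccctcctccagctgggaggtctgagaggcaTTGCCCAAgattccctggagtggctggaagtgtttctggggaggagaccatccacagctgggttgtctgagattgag
Lep: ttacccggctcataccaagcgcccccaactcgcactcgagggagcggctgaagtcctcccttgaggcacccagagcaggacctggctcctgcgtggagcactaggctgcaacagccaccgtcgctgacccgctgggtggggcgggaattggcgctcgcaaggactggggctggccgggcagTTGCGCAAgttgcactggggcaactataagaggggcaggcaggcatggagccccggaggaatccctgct
The match starts 77 bases before the start of Plin1 and 69 bases before that of Lep. Of the 14 adipocyte genes that fell, 9 had a promoter in the table, and 3 of the 9 held TTGCNNAA, compared with 10.5% of all promoters. Among the 12 largest rises, 2 of 9 promoters held it too.

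The 12 largest falls also held Saa3, which came after Fabp4 in size, and Aqp3, Pigr, Scgb1d2-ps1 and Ocm. Pigr, the receptor that carries IgA across the epithelium into milk, had 165, 732, 1003 and 78.5 in the cancers and 9376, 10840 and 9689 in normal tissue (-4.72 ± 0.84, adjusted p = 0.000179). Saa3, an acute-phase serum amyloid, had 421, 150, 171 and 60.03 in the cancers and 10910, 11740 and 22770 in normal tissue (-6.09 ± 1.18, adjusted p = 0.000432). Replicate 4 was the dimmest cancer for both, and both stayed called without it. Aqp3, a channel for water and glycerol, fell by 4.73 ± 0.51 (adjusted p = 9.97e-08). Ocm, a calcium-binding protein, had 8.30, 13.4, 46.7 and 18.6 in the cancers and 633, 4984 and 766 in normal tissue (-4.47 ± 0.67, adjusted p = 2.12e-05). The transcript listed as Scgb1d2-ps1, of the secretoglobin family, fell by 4.49 ± 0.99 (adjusted p = 0.00165). All 12 falls were still called without replicate 4.

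The summed intensity of the luminal list was 54077 to 66404 in the cancers and 48082 to 62970 in normal tissue, so the groups overlapped. Counts of list members are to be read beside the 11.6% of all genes that were higher and the 10.7% that were lower. Of 14 luminal genes, 3 rose and 1 fell, with a median log2 fold change of 0.09, and the fall, Elf5, was not called without replicate 4. Epcam, a surface protein of epithelial cells, had 12100, 11170, 11270 and 10290 in the cancers and 10110, 10860 and 15770 in normal tissue (-0.10 ± 0.11, adjusted p = 0.535). Krt8 and Krt18, the keratins of luminal cells, also overlapped between the groups, with differences of 0.17 and 0.06. Prom1, a membrane protein of luminal cells, had 1995, 8918, 2613 and 4462 in the cancers and 519, 916 and 632 in normal tissue, and it rose by 2.43 ± 0.42 (adjusted p = 0.000135). Cldn7, a tight junction protein, rose by 1.33 ± 0.28 (adjusted p = 0.000877), although the dimmest cancer lay below the brightest normal sample. Krt7 rose by 1.77 ± 0.55 (adjusted p = 0.02), a call lost without normal replicate 2 (0.88, adjusted p = 0.261), the sample in which it was dimmest at 57.9.

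Among 12 basal and myoepithelial genes, 4 rose and 1 fell. Tp63, the transcription factor of basal cells, had 1942, 1934, 1894 and 2201 in the cancers and 727, 616 and 633 in normal tissue (1.54 ± 0.29, adjusted p = 0.000301). The basal keratins Krt15 and Krt5 rose by 1.93 ± 0.38 and 0.93 ± 0.19 (adjusted p = 0.000573 and 0.000625), each with all cancers above all normal samples. Krt17 rose by 0.81 ± 0.27 (adjusted p = 0.0317) and was not called without replicate 4 (adjusted p = 0.0896). Krt14, another basal keratin, was not called (0.65, adjusted p = 0.314), and neither were the contractile genes Acta2 and Mylk (-0.20 and -0.26, adjusted p = 0.601 and 0.481). The fall was that of Oxtr, the oxytocin receptor that lets myoepithelium eject milk, which had 5.09, 9.76, 145 and 5.01 in the cancers and 337, 483 and 444 in normal tissue (-2.74 ± 0.28, adjusted p = 4.06e-08).

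Most endothelial markers fell and fibroblast markers were mostly not called. Of 10 endothelial genes, 7 fell and none rose (median -1.11), and the summed intensity of the list was 3783 to 5552 in the cancers and 7547 to 11179 in normal tissue. Tek, the angiopoietin receptor, had 227.7, 161.3, 261.5 and 605 in the cancers and 1285, 862 and 901 in normal tissue (-1.69 ± 0.34, adjusted p = 0.000595). Esam and Eng, junction and growth factor receptor proteins of vessels, fell by 1.15 ± 0.20 and 1.38 ± 0.31 (adjusted p = 0.000147 and 0.00166). Without replicate 4 the count was 6, since Pecam1 lost its call (adjusted p = 0.119). Of 17 fibroblast and matrix genes only Col5a2, a fibrillar collagen, was called, with a rise of 0.54 ± 0.19 (adjusted p = 0.0383); the list's median was -0.41 and none of its members fell by the test. The Schwann and fat cell marker S100b fell by 3.24 ± 0.42 (adjusted p = 2.52e-06).

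Immune markers gave few calls. Among 13 macrophage genes, Gpnmb, Tyrobp and Cd68 fell, by 1.51, 0.87 and 1.14 (adjusted p = 0.00546, 0.0217 and 0.0218), and none rose. Of 3 B and plasma cell genes, Jchain and Mzb1 fell (adjusted p = 0.0299 and 0.0475), and neither was called without replicate 4. No gene of the T and NK cell, mast cell, neutrophil, skeletal muscle or MHC class II lists was called in either direction. The mast cell genes differed among the cancers themselves. Tpsab1, a tryptase, had 22.5, 786, 31.4 and 3928 in the cancers and 31.6, 31.5 and 38.0 in normal tissue, and Cpa3, a carboxypeptidase of mast cells, had 170, 1371, 274 and 7671 in the cancers and 531, 402 and 546 in normal tissue. For both genes, replicates 4 and 2 were above all normal samples. Replicates 1 and 3 were below them for Cpa3, while for Tpsab1 these cancers and the normal samples were all dimmer than the added 42.8 and have no clear order. Tpsb2, the list member with the smallest adjusted p, had 291, 1583, 384 and 4764 in the cancers and 265, 289 and 203 in normal tissue. All 4 cancers were thus above all normal samples for Tpsb2, replicate 1 only narrowly, and it was not called (1.81 ± 1.06, adjusted p = 0.226). The mean of the 8 mast cell genes was 6.61, 9.32, 7.05 and 11.34 in cancers 1 to 4 and 7.43, 7.27 and 7.63 in normal tissue. In the same way, Acta1, the actin of skeletal muscle, was at 4690 in replicate 4, against 21.6 to 141 in the other cancers and 661, 1241 and 1000 in normal tissue.

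**Figure D3:**
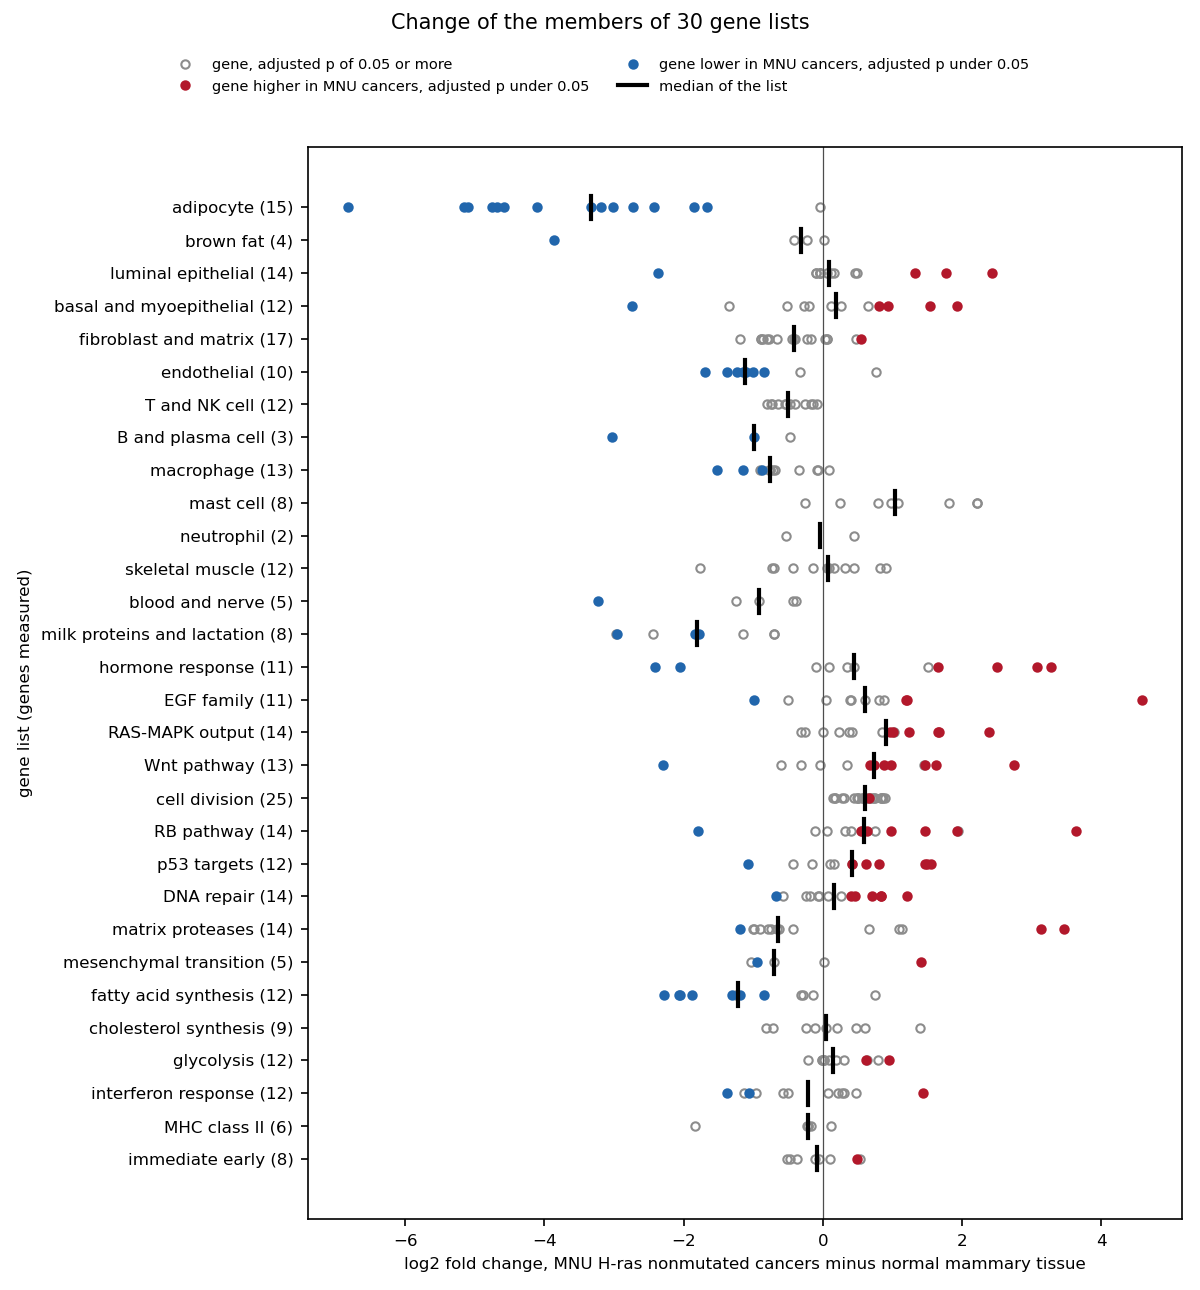
log2 fold change, MNU cancers minus normal tissue, of every measured member of 30 gene lists, with filled points for genes at an adjusted p below 0.05 (red higher, blue lower) and a black bar at each list's median. The adipocyte list lies furthest to the left, with a median of -3.33, and 7 of 12 fatty acid synthesis genes and 7 of 10 endothelial genes are filled on the lower side.

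Of the 3 calls among milk genes, those of Lalba and Xdh were lost without replicate 4. The mean of the 8 measured milk and lactation genes was 12.44, 12.16, 12.59 and 9.84 in cancers 1 to 4 and 13.28, 13.45 and 13.99 in normal tissue, and 3 members fell. Csn3, kappa-casein, had 15960, 14280, 15410 and 1437 in the cancers and 15510, 15780 and 27350 in normal tissue. Cancers 1 to 3 thus lay near normal replicates 1 and 2, and the difference was not called (-1.15 ± 0.45, adjusted p = 0.0638). Lalba, alpha-lactalbumin, had 11520, 3823, 12400 and 644 in the cancers and 12770, 13140 and 23270 in normal tissue. Its fall of -1.84 ± 0.55 (adjusted p = 0.0158) became -0.94 without replicate 4 and was no longer called (adjusted p = 0.0599). Lpo, lactoperoxidase, was the only milk gene called both with replicate 4 (-2.96 ± 0.82, adjusted p = 0.00969) and without it (-2.64, adjusted p = 0.0339).

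Of all called genes, the 5 whose log2 fold change moved most when replicate 4 was left out were Prr27, Elf5, Jchain, Gjb2 and Lalba. Prr27, a secreted proline-rich protein, had 9987, 5652, 11650 and 115 in the cancers and 15140, 16800 and 23630 in normal tissue. Elf5, the transcription factor of milk-secreting cells, had 3161, 1634, 4070 and 118 in the cancers and 4787, 10440 and 6913 in normal tissue. Jchain, the joining chain of secreted IgA, had 2058, 831, 1207 and 40.3 in the cancers and 4765, 5105 and 6247 in normal tissue. In each of these genes replicate 4 was more than 10 times dimmer than the next cancer, yet replicates 1 to 3 were below all normal samples too. Without replicate 4 their falls were -1.06, -1.33 and -2.03, and none was called (adjusted p = 0.218, 0.197 and 0.14). Gjb2, a gap junction protein, fell by 2.49 with replicate 4 and had -1.50 without it (adjusted p = 0.0124 and 0.0637). The 3' over 5' ratio and the mast cell markers of replicate 4 moved with these losses, and their part in them was not tested.

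**Figure D4:**
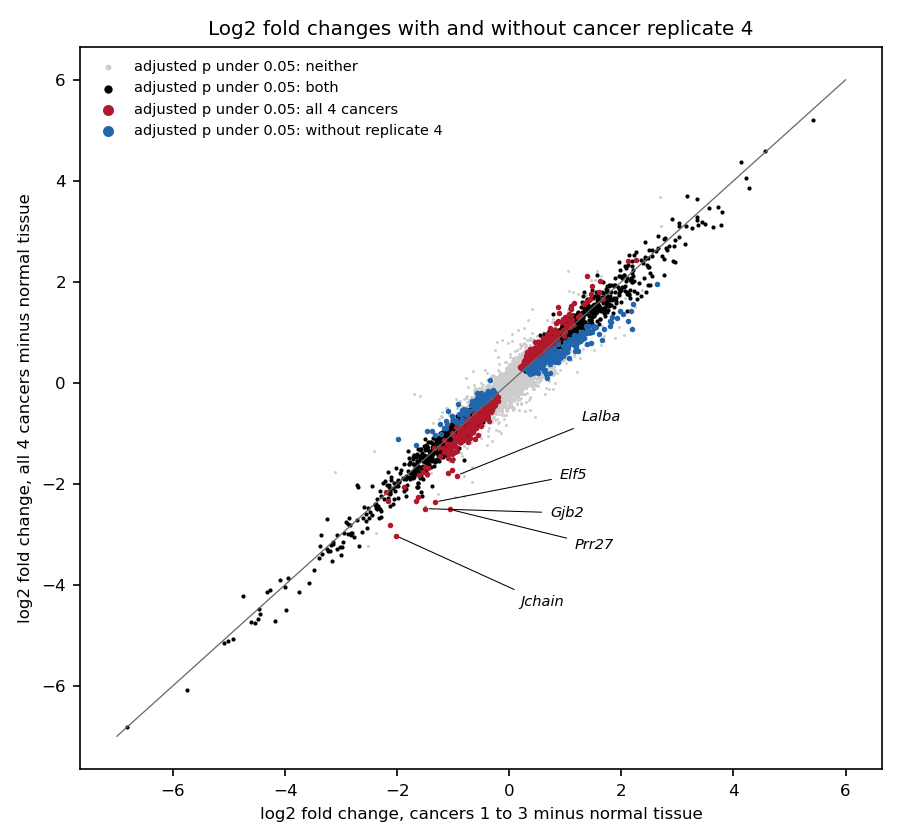
log2 fold change with all 4 MNU cancers (vertical axis) against that with replicates 1 to 3 (horizontal axis), 1 point per gene, coloured by whether the adjusted p was below 0.05 in both comparisons, only with replicate 4, only without it, or in neither. The 5 named genes lie below the line of equal values because their falls shrink without replicate 4.

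Hormone and growth factor genes moved in both directions. Of 11 hormone response genes, 4 rose and 2 fell, and without replicate 4 the counts were 3 and 2. Prlr, the prolactin receptor, had 7843, 3403, 5148 and 1072 in the cancers and 130, 479 and 762 in normal tissue, and it rose by 3.09 ± 0.56 (adjusted p = 0.000216). That is its brightest probe set. Its others had 2.06 and 0.49, and the last was not called (p of 0.353 adjusted over all kept probe sets). Pgr, the progesterone receptor, had 1134, 963, 993 and 560 in the cancers and 112, 75.0 and 193 in normal tissue (2.51 ± 0.57, adjusted p = 0.00194). Every cancer was above every normal sample for both receptors. Greb1, a target of the oestrogen receptor, rose by 1.65 ± 0.56 (adjusted p = 0.0326) and was not called without replicate 4 (adjusted p = 0.0528). Esr1, the oestrogen receptor itself, was dim on all 7 arrays and not called (0.35 ± 0.45, adjusted p = 0.601). Ghr, the growth hormone receptor, and Igf1, which it induces, fell by 2.41 ± 0.33 and 2.04 ± 0.43 (adjusted p = 5.9e-06 and 0.000982). Tnfsf11, the progesterone-induced ligand RANKL, had 3638 in cancer replicate 2 and at most 136 in every other sample of both groups, and was not called.

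The EGF family had ligands on both sides. Beside Areg, Tgfa had 453, 317, 469 and 568 in the cancers and 263, 84.3 and 193 in normal tissue (1.22 ± 0.29, adjusted p = 0.00286), and Btc, betacellulin, rose by 1.195 ± 0.339 (adjusted p = 0.0117). Hbegf, another ligand of the same receptor, had 119, 92.1, 116 and 116 in the cancers and 305, 156 and 366 in normal tissue (-0.99 ± 0.25, adjusted p = 0.00546). The receptor genes Egfr, Erbb2 and Erbb3 overlapped between the groups and were not called, with differences of 0.39, 0.40 and 0.05. Of 11 measured members, 3 rose and 1 fell with all 4 cancers; without replicate 4 the neuregulin Nrg2 was called as well (1.33, adjusted p = 0.0264).

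Output genes of the RAS to ERK kinase pathway were described because the cancers were sorted by H-ras status. Of 14 measured genes 6 rose and none fell, with a median of 0.91, and the count was the same without replicate 4. Spry1 and Spry2, inhibitors of receptor signalling, had rises of 1.23 ± 0.17 and 1.68 ± 0.26 (adjusted p = 3.97e-06 and 2.86e-05). Spry2 had 2028, 2627, 2039 and 1586 in the cancers and 638, 818 and 426 in normal tissue, with a clear gap. Dusp5, a phosphatase of ERK, rose by 1.02 ± 0.20 (adjusted p = 0.000382). The ETS transcription factors Etv4, Etv5 and Etv1 rose by 2.39, 1.66 and 0.97 (adjusted p = 0.000848, 0.00402 and 0.0175). Etv4 had 2753, 1853, 2498 and 463 in the cancers and 472, 110 and 326 in normal tissue. Replicate 4 thus lay below the brightest normal sample for Etv4. Etv5 had 1564, 1535, 1710 and 259 in the cancers and 316, 308 and 268 in normal tissue, so that replicate 4 alone was at the normal level. The mean of the list was 10.35, 10.33, 10.40 and 9.70 in cancers 1 to 4 and 9.40, 9.36 and 9.40 in normal tissue. The early targets Egr1 and Fosl1 were not called (-0.25 and -0.32, adjusted p = 0.493 and 0.297), and of 8 immediate early genes Ier2 rose (0.49 ± 0.12, adjusted p = 0.00393) and no other was called. Without replicate 4, Nr4a1 also rose (0.69, adjusted p = 0.0359) and Zfp36 fell (-0.65, adjusted p = 0.0359). Hras was not analysed here.

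The Wnt list had 7 rises and 1 fall among 13 genes, with or without replicate 4, and a median of 0.74. Lef1, the transcription factor through which beta-catenin acts, had 1784, 1498, 1468 and 527 in the cancers and 115, 104 and 230 in normal tissue (2.76 ± 0.43, adjusted p = 3.33e-05). The ligands Wnt6 and Wnt5a rose by 1.48 ± 0.27 and 1.62 ± 0.36 (adjusted p = 0.000194 and 0.00166). Axin2, a feedback target of the pathway, had 256, 319, 212 and 220 in the cancers and 167, 81.7 and 187 in normal tissue (0.68 ± 0.18, adjusted p = 0.00742). The receptor Fzd4 fell by 2.30 ± 0.22 (adjusted p = 9.85e-09) on its brightest probe set and had -0.76 on another. Ctnnb1, beta-catenin itself, was not called (-0.31 ± 0.13, adjusted p = 0.0924).

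**Figure D5:**
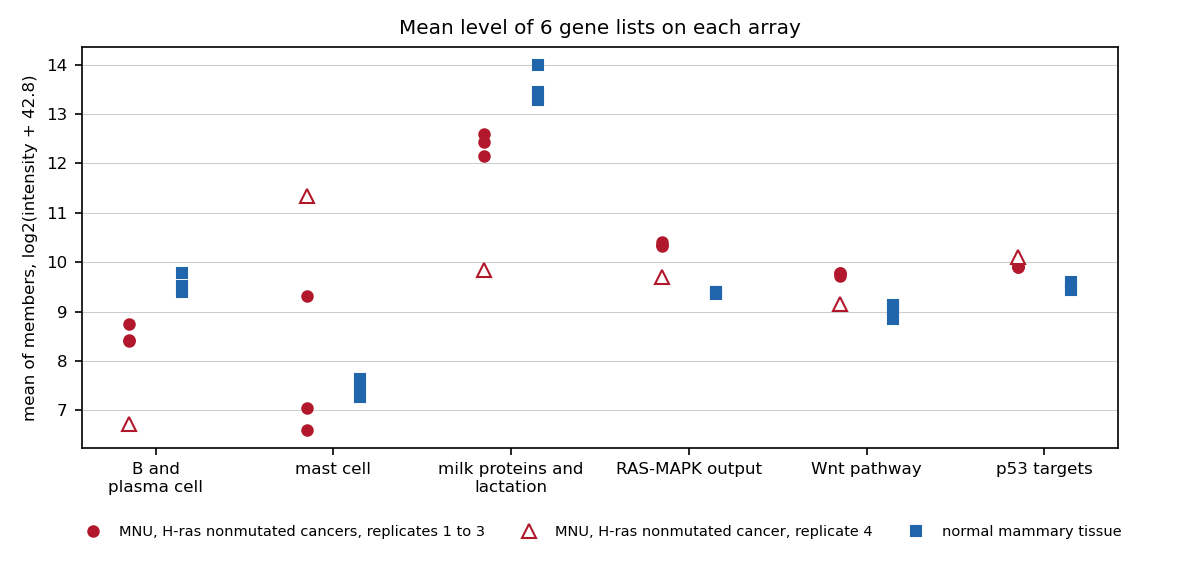
Mean log2(intensity + 42.8) of the measured members of 6 gene lists on each array, with MNU cancers (red, replicate 4 as an open triangle) left of normal tissue (blue squares). Replicate 4 is the lowest cancer for the B and plasma cell, milk, RAS-MAPK and Wnt lists (6.72, 9.84, 9.70 and 9.16) and the highest for the mast cell and p53 lists (11.34 and 10.11). All but the mast cell list are those flagged below because replicate 4 lay apart, so the lists drawn do not stand for all 30.

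Of the cell division genes, 1 of 25 was called. All 25 measured members had a positive log2 fold change, between 0.15 and 0.89 with a median of 0.61. They were read on the same 7 arrays and are not independent. Their mean was 8.98, 9.6, 8.66 and 9.75 in cancers 1 to 4 and 8.95, 8.79 and 8.26 in normal tissue, so the groups overlapped. Only Mcm7, a subunit of the replicative helicase, passed the test (0.67 ± 0.22, adjusted p = 0.0262). Mki67, the proliferation antigen, had 795, 1382, 537 and 1218 in the cancers and 1080, 844 and 275 in normal tissue. The groups overlapped (0.51 ± 0.46, adjusted p = 0.449), and cancers 2 and 4 were above cancers 1 and 3. Top2a, the topoisomerase of dividing cells, had 0.87 ± 0.36 (adjusted p = 0.0822). Without replicate 4 no member was called.

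Of 14 regulators of the RB pathway, 6 rose and 1 fell. Ccnd1, cyclin D1, had 8009, 6682, 7028 and 5204 in the cancers and 3081, 2118 and 2017 in normal tissue (1.48 ± 0.30, adjusted p = 0.000595). Its kinase partner Cdk4 rose by 0.63 ± 0.14 (adjusted p = 0.00178). Cdkn2b, an inhibitor of that kinase encoded beside Cdkn2a, had 203, 174, 199 and 240 in the cancers and 18.8, 18.9 and 26.7 in normal tissue (1.94 ± 0.35, adjusted p = 0.000177). Rb1, the protein that the kinase inactivates, had 510, 373, 752 and 489 in the cancers and 2079, 1584 and 2045 in normal tissue (-1.79 ± 0.36, adjusted p = 0.000693). Rbl1 and Cdkn2c rose by 0.98 and 0.55 (adjusted p = 0.013 and 0.0499). Without replicate 4 the counts were the same, with Ccnd2 called (2.63, adjusted p = 0.0278) and Rbl1 not (adjusted p = 0.051).

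Of 12 p53 target genes, 6 rose and 1 fell. Plk2, a kinase, had 3672, 3869, 3966 and 4333 in the cancers and 1428, 1308 and 1209 in normal tissue (1.56 ± 0.18, adjusted p = 4.01e-07). Cdkn1a, the cell cycle inhibitor p21, had 1495, 1913, 1152 and 1791 in the cancers and 599, 375 and 646 in normal tissue (1.49 ± 0.37, adjusted p = 0.00421). Perp, Zmat3 and Bbc3 rose by 1.48, 0.81 and 0.62 (adjusted p = 1.04e-05, 0.000248 and 0.0223), and Gadd45a fell by 1.08 ± 0.27 (adjusted p = 0.00429). Mdm2, which degrades p53, rose by 0.42 ± 0.15 (adjusted p = 0.0356), a call lost without replicate 4 (adjusted p = 0.136).

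DNA repair was examined because MNU methylates DNA. Mgmt, the enzyme that removes methyl groups from O6-methylguanine, had 293, 370, 287 and 818 in the cancers and 428, 457 and 280 in normal tissue. It was not called (0.07 ± 0.31, adjusted p = 0.891), and replicate 4 alone was above the normal samples. Of 14 measured repair genes, 6 rose and 1 fell. Msh6, of mismatch recognition, had 983, 973, 854 and 1051 in the cancers and 518, 608 and 444 in normal tissue (0.84 ± 0.17, adjusted p = 0.000629). Brca2 rose by 1.22 ± 0.29 (adjusted p = 0.00342), and Xrcc1, a scaffold of base excision repair, fell by 0.67 ± 0.14 (adjusted p = 0.00108). The base excision gene Apex1 and the ligase Lig1 rose by 0.84 and 0.71 (adjusted p = 0.000271 and 0.00246) on the brightest probe set, but not on the mean of each gene's probe sets (0.46 and 0.10, adjusted p = 0.165 and 0.775). Pms2 rose by 0.46 (adjusted p = 0.0336) and was not called without replicate 4 (adjusted p = 0.0575).

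Among 14 matrix protease genes, 2 rose and 1 fell. Mmp3, stromelysin, had 5658, 1322, 7210 and 1996 in the cancers and 459, 190 and 404 in normal tissue (3.13 ± 0.69, adjusted p = 0.00149). Plaur, the urokinase receptor, had 107, 119, 118 and 24.1 in the cancers and 261, 209 and 276 in normal tissue (-1.19 ± 0.22, adjusted p = 0.000324). Mmp14, a membrane protease, had 3057, 3402, 2391 and 428 in the cancers and 438, 627 and 1879 in normal tissue, and it was called only without replicate 4 (1.80, adjusted p = 0.00289). Of 5 genes of mesenchymal transition, Twist1 rose by 1.41 ± 0.39 and Vim fell by 0.94 ± 0.24 (adjusted p = 0.00993 and 0.00473). Without replicate 4, Zeb2 was called lower as well (-1.33, adjusted p = 0.0178).

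Genes of lipid synthesis fell in part. Of 12 fatty acid synthesis genes, 7 fell and none rose, with or without replicate 4, and the median was -1.22. Elovl5, an elongase, had 3175, 3364, 3666 and 3101 in the cancers and 6902, 9916 and 8144 in normal tissue (-1.30 ± 0.21, adjusted p = 4.63e-05). Acaca, which commits carbon to fatty acids, fell by 1.19 ± 0.22 (adjusted p = 0.000307), and Thrsp, an inducer of lipogenesis, fell by 2.28 ± 0.54 (adjusted p = 0.00317). Fasn, fatty acid synthase, had 4635, 12200, 7152 and 8048 in the cancers and 7915, 8087 and 12210 in normal tissue (-0.28 ± 0.30, adjusted p = 0.516). These enzymes work in fat cells and in milk-secreting epithelium alike; the adipocyte markers moved with them, and their part was not tested. None of 9 cholesterol synthesis genes was called. Of 12 glycolysis genes, Hk1 and Pgk1 rose by 0.95 ± 0.17 and 0.62 ± 0.22 (adjusted p = 0.000215 and 0.045), the second only with replicate 4.

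Of 12 interferon response genes, 1 rose and 2 fell, which is near the 11.6% higher and 10.7% lower over all genes. Psmb9, a subunit of the immunoproteasome, had 4960, 5161, 4433 and 4734 in the cancers and 2435, 1565 and 1385 in normal tissue (1.44 ± 0.19, adjusted p = 3.97e-06). The chemokine Cxcl10 and the antiviral gene Ifit3 fell by 1.38 and 1.06 (adjusted p = 0.000192 and 0.00811). Without replicate 4, Tap1, a peptide transporter, rose too (0.60, adjusted p = 0.0288), and the list's median was 0.21 in place of -0.21.

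The same 4 cancers were set against the mean of the 5 other groups of cancers without an H-ras mutation, 18 cancers in all, to ask what differed with MNU as the sole agent. Of the 18, 4 followed gamma rays plus MNU, so MNU had been given on both sides. No gene passed, 0% higher and 0% lower, although 763 genes had an unadjusted p below 0.05; the median 95% interval reached 0.29 on either side of the estimate. Without replicate 4, 1 gene (0.00849%) was higher and 0% were lower, with 613 genes at an unadjusted p below 0.05. That gene, Gsdma, a gasdermin whose probe set can match several transcripts, had 233, 106, 432 and 55.5 in the MNU cancers, and its difference without replicate 4 was 1.26 (adjusted p = 0.0466). The smallest adjusted p with all 4 cancers belonged to Hpgd, the enzyme that inactivates prostaglandins, at 2.97 with a 95% interval of 1.85 to 4.09 (adjusted p = 0.0926). Without replicate 4 its difference was 2.32 (adjusted p = 0.66). Its intensity was 276, 2608, 1846 and 7051 in MNU cancers 1 to 4, and its level on the log2 scale was 10.84 in the MNU cancers and 7.88 in the other cancers. The next smallest p belonged to Stat5a, a transcription factor of prolactin signalling, Nod1, a sensor of bacterial cell walls, Plaur, and Ctps1, an enzyme of CTP synthesis. Their differences were 0.62, -0.50, -0.75 and 1.05, none of them called (adjusted p = 0.231, 0.231, 0.231 and 0.486). For the 24 leading genes this difference lay between -1.57 and 1.49, with no adjusted p below 0.507. Areg, for example, differed by 0.23 (95% interval -0.32 to 0.79) and Fabp4 by -0.50 (95% interval -1.33 to 0.34). The 95% interval excluded no difference for Nxpe2 (0.51 to 1.71), Sema3b (0.23 to 1.81), Scgb1d2-ps1 (-3.05 to -0.1) and Ocm (-2.24 to -0.24). For the other leading genes it included no difference. The intervals are not adjusted for the number of genes. These intervals do not show that the groups were alike.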

How the data were processed

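RNA from 36 rat mammary samples had been hybridised to single-colour oligonucleotide arrays with 31099 probe sets. The deposited values are intensities on a linear scale; from the values, each array had been scaled by the authors to a mean of about 500 after trimming 2% at each end. The method that summarised probes, its software and the build behind the probe sets are not given in the sources used here, and no detection calls were used, so dim genes may be background. Of the probe sets, 20832 carried 1 gene symbol, 436 several and 9831 none; only the first kind was named.

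Values were analysed as log2(intensity + 42.8), where the added number is the 20th percentile over the whole table. Probe sets above 125.8 (the 40th percentile) on at least 3 arrays were kept, 16370 in all, and the brightest per symbol gave 11773 genes. The 36 arrays entered a single limma model (version 3.58.1, under R 4.3.3) with 1 mean for each of 10 groups (empirical Bayes, Benjamini-Hochberg over all genes, adjusted p below 0.05). On simulated data for MNU cancers minus normal tissue over 11773 genes, 200 genes were changed. The procedure recovered 92% of changes of 2 and 70% of changes of 1 on the log2 scale, and 6.36% of its calls were false. The simulated noise was normal and independent, with 1 spread per gene for all groups and arrays. It did not carry the lower quality of replicate 4 or unequal spreads of the groups, so these rates may not hold for the calls made here.

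The rule for named genes took the 12 largest rises and falls, up to 4 members of each of 30 lists with the smallest adjusted p, the 5 called genes moved most by replicate 4 and the 5 with the smallest p against the other nonmutated cancers. Not all of them are described one by one, and other list members in the text were chosen after their values were seen. The comparison, the lists (327 of 370 members measured) and these rules were chosen with earlier results of these data known. Promoters came from RefSeq (GRCr8). Alternatives covered the added constant, the filter, normalization, probe set choice, the samples fitted, array weights, a 3' over 5' covariate, a replicate block and each array left out.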

Additional observations from a re-analysis of the deposited data

Results flagged for a closer look

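Among the 4 MNU cancers, 140 genes and 30 list means were examined for a sample lying apart, by the gap to its nearest neighbour over the whole range of the group, against Dixon's critical value. Chance alone picks out about 1 in 20. Replicate 4 was the lowest by such a gap for Sema3b (0.843), Csn3 (0.954), Lef1 (0.837), Plaur (0.915), Prr27 (0.833) and Gjb2 (0.927). It was the highest for Tp63 (0.833) and Vim (0.878). For list means it was the lowest for B and plasma cell genes (0.832), milk genes (0.844), RAS-MAPK output genes (0.9) and Wnt genes (0.919), and the highest for p53 targets (0.905). Replicate 2 was the highest for Tyrobp (0.875) and Pfkp (0.914) and the lowest for Hbegf (0.873). Replicate 3 was the highest for Oxtr (0.931). Prr27 and Gjb2 were named because replicate 4 moved them most, so their gaps restate that choice. Replicate 4 is the array with the highest hexokinase and GAPDH 3' over 5' ratios; the part of RNA quality in these gaps was not tested.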

How the results depend on the processing

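Fitting only the 2 groups gave 1078 genes in place of 2632, and 1358 in place of 2250 without replicate 4. Leaving out replicate 4 thus lowered the count in the fit of all groups and raised it in the fit of the 2 groups. The spread rested on fewer samples in the fit of the 2 groups, and the part of this in the lower counts was not tested. The other settings that kept all 7 arrays gave 2278 to 2747 genes, and leaving out 1 array at a time gave 1821 to 2577 genes, 802 to 982 of at least 2-fold change, and, with replicate 4 already left out, 1517 to 2072. Of the 140 named genes, 127 could be tested under the stricter filter and all under the other settings. No called gene changed direction, but 4 uncalled ones did, with 11 values in all. Ppargc1a (0.02) became -0.01 with the constant at the 40th percentile, 0 with quantile normalization and with the 3' over 5' covariate, -0.06 with array weights, and -0.38 to 0.27 with 1 array left out. S100a9 (0.45) became -0.24 with array weights and -0.42 to 1.23 with 1 array left out, Stat5a (-0.10) became 0 with quantile normalization and -0.21 to 0.05 with 1 array left out, and Cox7a1 (-0.22) ranged over -0.50 to 0.04. Of the named genes, 18 lost their call with only the 2 groups, 12 without normal replicate 3, 10 without normal replicate 2 and 9 without MNU replicate 4. Against the other nonmutated cancers, 1 gene was called in place of 0 with the added constant at the 40th percentile (Hpgd, 2.6, adjusted p = 0.0419) and with array weights (Gsdma, 1.37, adjusted p = 0.00459), and leaving out 1 array gave 0 to 1: Hpgd without MNU replicate 1 (3.81, adjusted p = 0.000816) and Gsdma without MNU replicate 4. The cause was not tested. With the replicate number as a block, 2529 genes were called, 937 of at least 2-fold change, 2239 without replicate 4 and 0 against the other cancers. No pairing by number was seen: deviations of same-numbered samples correlated at -0.121 to 0.126 over 3 pairs, and 0 of 3 correlated best with their own number. So few pairs cannot exclude a pairing. Of 38 named genes with several probe sets, 5 (Tnnt3, Lig1, Tap1, RT1-Ba and Ctps1) had one of opposite sign, and none was called in both directions. Some called genes had another probe set of the same sign that was not called. Examples are Tgfa (0.7), Cdkn1a (1.7), Col5a2 (0.48) and Prlr (0.49), with p of 0.112, 0.082, 0.129 and 0.353 adjusted over all kept probe sets. Precision is limited by 3 normal samples, and no detection calls were used for dim genes.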
